A study of Mus musculus with 8 samples.

Results

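The TALE homeobox genes of the Meis, Pbx, Pknox and Tgif families were compared between mouse myeloid cells with a Meis1 transgene deleted and cells that kept it. The set was Meis1, Meis2, Meis3, Pbx2, Pbx3, Pbx4, Pknox1, Pknox2 and Tgif1, and its members were every probe set that the platform annotation assigns to exactly one of these symbols. That gave 16 probe sets for 9 genes, out of 45037 probe sets and 17097 singly named genes on the array. Meis1 deleted cells (4 arrays) had received 2 µM 4-hydroxytamoxifen to remove the floxed Meis1 cDNA and kept retroviral Hoxa9, and Hoxa9 and Meis1 cells (4 arrays) carried both transgenes and no drug. All cells came from C57BL/6 bone marrow with a tamoxifen-activated Cre at Rosa26, were transformed by these retroviruses into immortalized myeloid cells that the labels call AML, and grew in interleukin-3. The labels report a genomic PCR check of the deletion. Since the drug went to the deleted group alone, drug, Cre activity and loss of Meis1 cannot be told apart. The labels name no separate cultures, animals or clones behind the 4 arrays of a group, so every p-value rests on a spread between samples that may be technical.

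TALE proteins share an atypical homeodomain with an extended loop. Pbx proteins bind DNA together with Hox proteins, and Meis and Pknox (also called Prep) proteins bind Pbx through the same surface and help to hold it in the nucleus, so that Meis and Pknox can compete for the same Pbx partner. Meis1 is a cofactor of Hoxa9 in mouse and human myeloid leukaemia, Pknox1 has tumour-suppressing activity in mice, and Tgif1 is a repressor that acts on Smad proteins of the TGF-beta pathway.

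Of the 9 TALE genes 7 were tested, since Meis2 and Pknox2 lay under the filter on signal level. Pknox1 fell and Pbx2 rose after the Meis1 cDNA was targeted, and no other tested member passed. Pknox1 was lower by 0.46 to 0.58 on the log2 scale at all 3 of its probe sets. Pbx2 was higher by 0.41 to 0.56 at all 3 of its probe sets, of which 1 passed. The group means of Pbx3, Tgif1, Meis1 and Meis3 lay within 0.10 of each other, and Pbx4 was lower by 0.19 without passing.

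The values are log2 expression per probe set as deposited, with nearly equal medians on the 8 arrays. Probe sets in the lowest 40% by mean level (below 4.29) were left out, and the other 27022 were tested with limma, with Benjamini-Hochberg adjustment over all of them and a threshold of 0.05. The filter kept 11 member probe sets for 7 genes and left out 5, namely both probe sets of Meis2 and of Pknox2 and 1 of Meis1. Across the array 31.3% of the tested probe sets were called, 14.2% higher and 17.1% lower. Among the 11 tested TALE probe sets 1 was called higher and 3, all of Pknox1, were called lower. Taken as 1 probe set a gene, 1 of 7 genes was called in each direction, where the array had 17.7% of genes higher and 17.0% lower, so the share of TALE genes that changed was near that of all genes. The median log2 fold change was 0.02 over the 11 TALE probe sets and -0.02 over all tested.

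**Figure D1:**
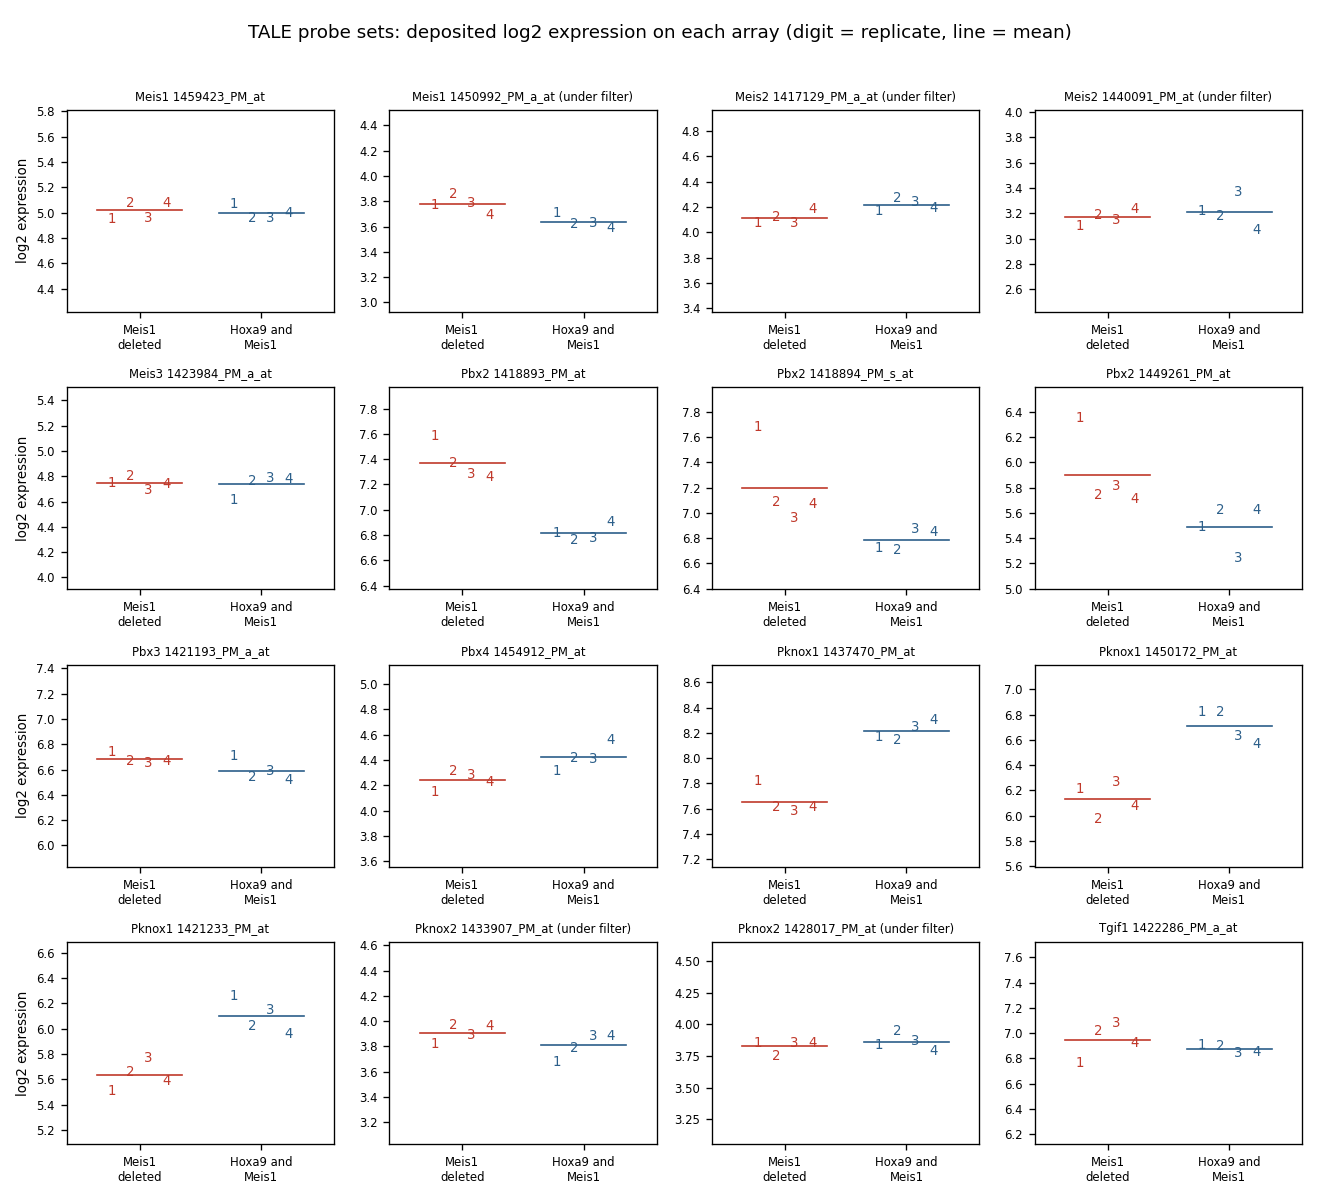
Deposited log2 expression (y axis) of each of the 16 TALE probe sets on the 4 Meis1 deleted arrays (red, left) and the 4 Hoxa9 and Meis1 arrays (blue, right); digits are replicate numbers, lines are group means, and every panel spans 1.6 units. The groups stand apart at the Pbx2 and Pknox1 probe sets and, narrowly, at Pbx4, and replicate 1 of the deleted group is the highest array at all 3 Pbx2 probe sets.

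The arrays were first checked. Myeloid markers were high in both groups, with the mean over the 8 listed markers at 9.87 to 9.97 in Meis1 deleted cells and 9.62 to 9.69 in Hoxa9 and Meis1 cells, and all 8 lay above the filter. Macrophage markers averaged 9.76 to 9.84 in Meis1 deleted cells and 6.02 to 6.13 in Hoxa9 and Meis1 cells over 6 genes. By gene the log2 rise was 6.43 for Mrc1, 6.28 for C1qb, 4.97 for C1qa, 3.10 for Msr1, 1.06 for Csf1r and 0.40 for Adgre1. Adgre1 and Csf1r already read 9.88 and 7.36 in Hoxa9 and Meis1 cells. The 5 stromal markers lay under the filter, while 2 of 3 T cell, 1 of 3 B cell and 2 of 2 erythroid markers on the array lay above it. All TALE differences below moved together with this macrophage gene change, whose part in them was not tested, and a changed mixture of cells and a changed level per cell cannot be told apart in bulk RNA. Meis1 deleted replicate 1 stood apart in RNA quality: its Gapdh 3′ signal exceeded its 5′ signal by 0.72, against -0.07 to 0.04 on the other 7 arrays. The arrays also split into 5 with a low and 3 with a high signal of the spiked bioB control (4.04 to 4.28 and 6.43 to 6.61), with 3 Meis1 deleted and 2 Hoxa9 and Meis1 arrays in the low set and 1 and 2 in the high set. Fits within the high set take their spread from its 2 Hoxa9 and Meis1 arrays and assume that the lone deleted array varies like them, so they are given as values and carry no call.

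The probe sets of Meis genes, the direct binding partners of Pbx, read low, beside a median level of 6.42 over all tested probe sets. No detection calls place them above background. The tested Meis1 probe set 1459423_PM_at read 4.95, 5.08, 4.96 and 5.08 in Meis1 deleted cells and 5.07, 4.96, 4.96 and 5.00 in Hoxa9 and Meis1 cells. The groups overlapped, with a log2 fold change of 0.02 (95% interval -0.09 to 0.14, limma adjusted p = 0.765). The further Meis1 probe set 1450992_PM_a_at, under the filter, read 3.77, 3.86, 3.79 and 3.69 in Meis1 deleted cells and 3.71, 3.62, 3.63 and 3.59 in Hoxa9 and Meis1 cells. Neither was lower where the cDNA had been targeted, and the sources used here do not place either probe set inside or outside the retroviral cDNA, so they check neither the deletion nor the labels. In a limma fit without the filter the second probe set differed by 0.14 with an adjusted p of 0.0972.

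Meis2 and Meis3 gave no difference either. Meis3 read 4.75, 4.80, 4.69 and 4.74 in Meis1 deleted cells and 4.61, 4.76, 4.79 and 4.78 in Hoxa9 and Meis1 cells, which overlapped (log2 fold change 0.01, 95% interval -0.11 to 0.13, limma adjusted p = 0.915). The Meis2 probe sets averaged 4.11 ± 0.05 and 3.17 ± 0.06 (SD, n = 4) in Meis1 deleted cells and 4.22 ± 0.05 and 3.21 ± 0.13 in Hoxa9 and Meis1 cells, under the filter in every case. Without the filter their differences of -0.10 and -0.04 had limma adjusted p of 0.170 and 0.714. No rise of Meis3 was detected at this low signal, where the interval ended at 0.13. The Meis2 probe sets, not shown to be above background, set no limit on a change of Meis2.

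Pknox1, which binds Pbx in place of Meis, fell at each of its 3 probe sets. Probe set 1437470_PM_at read 7.82, 7.61, 7.58 and 7.61 in Meis1 deleted cells and 8.17, 8.14, 8.25 and 8.30 in Hoxa9 and Meis1 cells. Every deleted array was lower than every array with Meis1, and the level fell by 32.2% on the linear scale (log2 fold change -0.56 ± 0.07 SE, limma adjusted p = 0.000188). Probe set 1450172_PM_at read 6.21, 5.97, 6.27 and 6.08 in Meis1 deleted cells and 6.82, 6.82, 6.63 and 6.57 in Hoxa9 and Meis1 cells, also without overlap (-0.58 ± 0.08, limma adjusted p = 0.000773).

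The third Pknox1 probe set, 1421233_PM_at, is annotated to the same accession as 1450172_PM_at and so may not be independent of it. It read 5.51, 5.66, 5.77 and 5.59 in Meis1 deleted cells and 6.26, 6.02, 6.15 and 5.96 in Hoxa9 and Meis1 cells (-0.46 ± 0.08, limma adjusted p = 0.00208). The groups did not overlap at any of the 3 probe sets, as was the case for 34.5% of tested probe sets, 18.8% in the lower direction. Among the 1065 genes with 3 tested probe sets, 6.10% had all 3 called lower, as Pknox1 did. Changes at least as large in either direction were seen at 7.43% of tested probe sets for 1437470_PM_at and at 10.6% for 1421233_PM_at.

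The fall of Pknox1 did not depend on a single array. With each array left out in turn, the log2 fold change ran from -0.61 to -0.53 at 1437470_PM_at, from -0.62 to -0.52 at 1450172_PM_at and from -0.51 to -0.41 at 1421233_PM_at, and each passed in all 8 fits. Within the low bioB set the values were -0.49, -0.67 and -0.50, and within the high bioB set -0.66, -0.52 and -0.46. Added to the linear values before the log, an offset of 64 reduced them to -0.44, -0.33 and -0.22, all still past the threshold.

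Pknox2, the other gene of this subfamily, stayed under the filter. Its probe sets averaged 3.91 ± 0.07 and 3.83 ± 0.05 in Meis1 deleted cells and 3.81 ± 0.09 and 3.86 ± 0.06 in Hoxa9 and Meis1 cells (SD, n = 4), and both overlapped between groups. Without the filter the differences of 0.10 and -0.04 had limma adjusted p of 0.312 and 0.665.

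**Figure D2:**
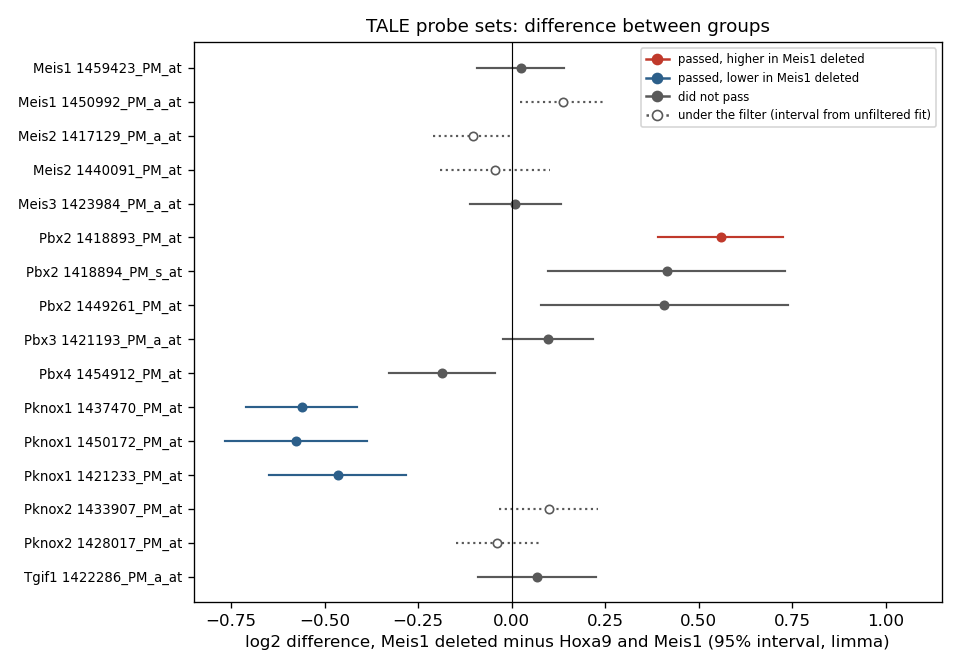
Log2 difference (x axis), Meis1 deleted minus Hoxa9 and Meis1, of the 16 TALE probe sets (rows) with 95% limma intervals, 4 arrays a group; red and blue passed, filled grey did not pass, and open symbols with dotted lines lay under the filter and show the unfiltered fit. The Pknox1 intervals lie wholly below 0 and the Pbx2 intervals wholly above 0, while the intervals of the other tested probe sets except Pbx4 span 0; of those under the filter, Meis1 1450992_PM_a_at lies above 0 (0.02 to 0.25).

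Pbx2, a broadly expressed Pbx gene, rose at 1 probe set and was higher without passing at the others. Probe set 1418893_PM_at read 7.58, 7.37, 7.28 and 7.26 in Meis1 deleted cells and 6.82, 6.76, 6.78 and 6.90 in Hoxa9 and Meis1 cells. The groups did not overlap and the level was 1.47-fold higher (log2 fold change 0.56 ± 0.07 SE, limma adjusted p = 0.000409). Changes at least as large in either direction were seen at 7.50% of tested probe sets, and of the genes with 3 tested probe sets 6.38% had all 3 called higher, which Pbx2 did not.

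RefSeq promoter windows matched 6 of the 9 members. Of the changed members, Pbx2 had one, shown because Pbx2 is the member that rose. These are the 250 bases before its start at chr17:34592009-34592258 (GRCm38.p6, plus strand), with CpG dinucleotides in capitals.
Pbx2 promoter: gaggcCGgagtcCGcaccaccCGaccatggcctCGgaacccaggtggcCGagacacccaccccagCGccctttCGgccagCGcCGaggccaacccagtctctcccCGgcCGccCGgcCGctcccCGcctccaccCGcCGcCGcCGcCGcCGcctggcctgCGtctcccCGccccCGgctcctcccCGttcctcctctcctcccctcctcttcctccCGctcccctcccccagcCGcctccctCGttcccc
This window is 77.6% G or C and holds 27 CpG dinucleotides, beside medians of 52.4% and 6 over the 32851 windows of the same length, of which 2.35% were as rich in G and C and 8.56% as rich in CpG. Together with the 50 bases after the start it holds 0 matches, on either strand, to TGACAG, the half-site of Meis, Pknox and Tgif proteins, to TGATTGAC, the core of Pbx-Meis sites, which can run into a TGACAG, or to TGATNNAT, a Pbx-Hox site. Over the full windows of 300 bases, 19.2%, 0.770% and 8.85% of all promoters held these motifs. No match says only that these letters are absent here.

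The other Pbx2 probe sets, annotated to the same accession, were more scattered in the deleted group. Probe set 1418894_PM_s_at, whose suffix marks probes shared by more than one transcript, read 7.68, 7.09, 6.96 and 7.07 in Meis1 deleted cells and 6.72, 6.71, 6.87 and 6.85 in Hoxa9 and Meis1 cells (0.41 ± 0.14, limma adjusted p = 0.0507). Probe set 1449261_PM_at read 6.35, 5.74, 5.81 and 5.71 in Meis1 deleted cells and 5.49, 5.62, 5.24 and 5.62 in Hoxa9 and Meis1 cells (0.41 ± 0.15, limma adjusted p = 0.0624). Neither overlapped between groups, as was the case for 15.7% of tested probe sets in the higher direction, and in both the highest array was deleted replicate 1, the array with the raised Gapdh 3′ excess.

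Without deleted replicate 1 the size of the Pbx2 difference was smaller and its spread narrower. The log2 fold changes were then 0.49 at 1418893_PM_at (limma adjusted p = 8.94e-05), 0.26 at 1418894_PM_s_at (0.00827) and 0.26 at 1449261_PM_at (0.0503). Probe set 1418893_PM_at passed in all 8 fits with an array left out, and 1418894_PM_s_at in 2 of them, without deleted replicate 1 and without deleted replicate 3. Within the low bioB set the values were 0.62, 0.53 and 0.41, and within the high bioB set, which does not hold deleted replicate 1, they were 0.43, 0.22 and 0.28. In the low set 1418893_PM_at passed (limma adjusted p = 0.0170) and the others did not.

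Whether the probe sets of a gene moved by different amounts was tested on their difference per array. Pknox1 and Pbx2 gave 6 such pairs, and 0 differed by the two-sided exact permutation test, which runs over 70 assignments (smallest adjusted p 0.742, smallest unadjusted p 0.229, so 0 also before adjustment; the smallest p the design allows is 0.0286). After adjustment over 6 pairs a call needs at least 4 of them at that smallest p, so the lack of a call does not show that probe sets moved alike. The widest gap within Pbx2 was 0.15, between 1418893_PM_at and 1449261_PM_at, and within Pknox1 0.11, between 1450172_PM_at and 1421233_PM_at. Without deleted replicate 1 the widest gap within Pbx2 was 0.23, between 1418893_PM_at and 1418894_PM_s_at, and reached the smallest p of that test (exact permutation p = 0.0286, adjusted p = 0.171). The widest gap within Pknox1 was then 0.19 in size, between 1437470_PM_at and 1421233_PM_at (-0.19, exact permutation p = 0.171).

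**Figure D3:**
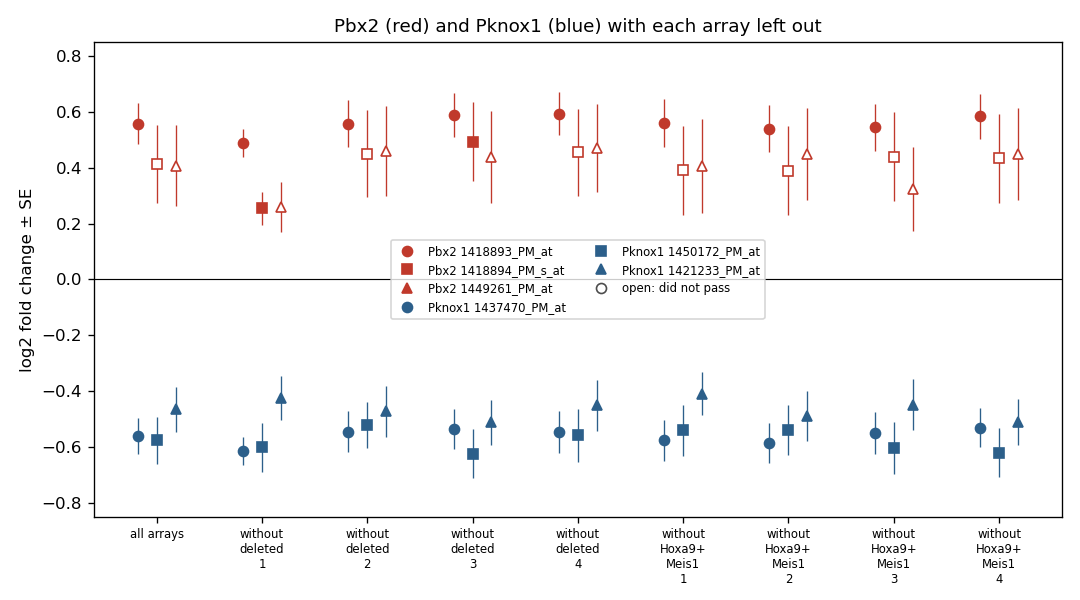
Log2 fold change ± SE (y axis) of the 3 Pbx2 probe sets (red) and 3 Pknox1 probe sets (blue) with all arrays and with each array left out (x axis); open symbols did not pass. Pknox1 stayed between -0.62 and -0.41, and the lower Pbx2 values of 0.26 came without deleted replicate 1.

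Pbx3 and Pbx4 differed from Pbx2 in what they showed. Pbx3, a Pbx gene tied to Hoxa9 in leukaemia, read 6.74, 6.67, 6.65 and 6.67 in Meis1 deleted cells and 6.71, 6.54, 6.59 and 6.52 in Hoxa9 and Meis1 cells. These overlapped and did not pass (0.10, 95% interval -0.02 to 0.22, limma adjusted p = 0.207). Pbx4 lay just above the filter, at 4.15, 4.31, 4.28 and 4.23 in Meis1 deleted cells and 4.31, 4.42, 4.41 and 4.56 in Hoxa9 and Meis1 cells. Its groups did not overlap, by the smallest margin of any member, and it missed the threshold (-0.19 ± 0.06, limma adjusted p = 0.0505). It passed with the fit redone on 1 row per gene by the highest mean (limma adjusted p = 0.0353) and without Hoxa9 and Meis1 replicate 1 (0.0346). Its log2 fold change was -0.12 and -0.26 within the low and high bioB sets.

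Tgif1 read 6.76, 7.02, 7.08 and 6.92 in Meis1 deleted cells and 6.91, 6.90, 6.84 and 6.85 in Hoxa9 and Meis1 cells. The groups overlapped, with deleted replicate 1 the lowest of all 8 arrays (0.07, 95% interval -0.09 to 0.23, limma adjusted p = 0.505). With that array left out the value was 0.13, with a limma adjusted p of 0.0734.

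**Figure D4:**
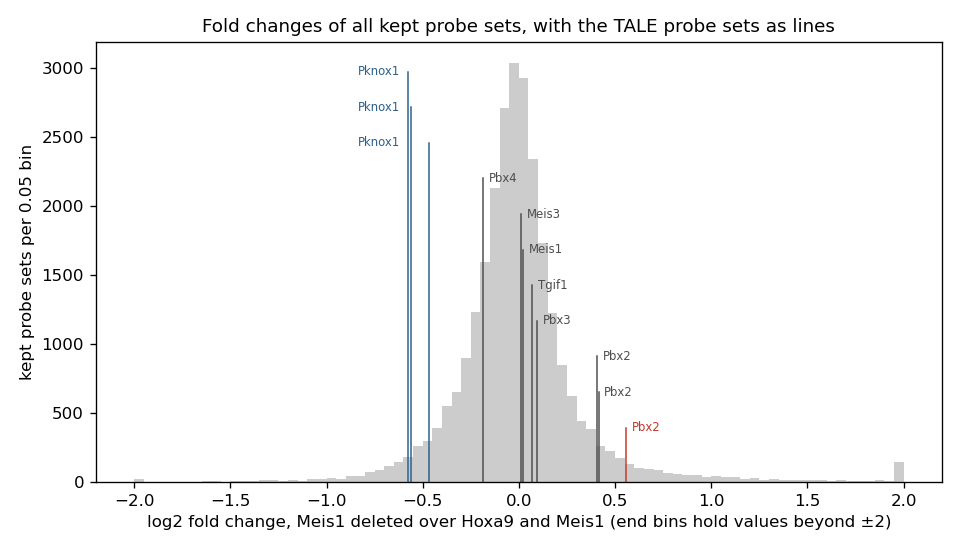
Number of tested probe sets per 0.05 bin (y axis) by log2 fold change, Meis1 deleted over Hoxa9 and Meis1 (x axis, end bins hold values beyond 2 in size), with the 11 tested TALE probe sets as lines whose heights have no meaning. Pknox1 lies in the lower flank and Pbx2 in the upper flank of the distribution, and the other members lie in its centre.

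Genes that act with the TALE factors were counted in gene lists, by the probe set with the highest mean for each gene, against 34.7% of all 11836 genes called. Of the other TALE homeobox genes, 8 of 11 were on the array under their own symbol and 2 were above the filter. Tgif2 (-0.05, limma adjusted p = 0.651) and Irx6 (-0.05, limma adjusted p = 0.700) did not pass, and the rest, such as Irx3, Irx5 and Mkx, lay under the filter. The list's median was -0.05, beside -0.0044 over all genes.

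Among cofactors of TALE proteins 2 of 16 tested genes rose and 5 fell, with a median of -0.05. Pbxip1, a protein that binds Pbx and blocks its DNA binding with Hox, read 8.48, 8.37, 8.36 and 8.47 in Meis1 deleted cells and 8.10, 8.12, 8.17 and 8.21 in Hoxa9 and Meis1 cells (log2 fold change 0.27 ± 0.05, limma adjusted p = 0.00278). A second Pbxip1 probe set rose by 0.29 (limma adjusted p = 0.0204). Whether the rises of Pbxip1 and Pbx2 were linked was not tested. The Smad corepressors Skil and Ski gave the largest falls among the tested genes of the list. Skil averaged 8.42 ± 0.07 in Meis1 deleted cells and 9.71 ± 0.06 in Hoxa9 and Meis1 cells (-1.29 ± 0.05, limma adjusted p = 1.96e-07). Ski averaged 7.89 ± 0.22 in Meis1 deleted cells and 8.85 ± 0.11 in Hoxa9 and Meis1 cells (-0.96 ± 0.11, limma adjusted p = 0.000146). A further Ski probe set fell by less (-0.48, limma adjusted p = 0.00178).

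The Smad genes themselves changed by small amounts. Smad2, a signal-carrying Smad that Tgif1 binds, was lower by -0.23 ± 0.04 on the log2 scale (limma adjusted p = 0.00289), Smad4 was lower by -0.21 (0.0473), and Smad3 was higher by 0.24 (0.00761). The fifth fall was that of the deacetylase Hdac2 (-0.15, limma adjusted p = 0.0482). Further tested probe sets of Smad2 (-0.11), Smad3 (0.02) and Hdac2 (-0.02) did not pass, while both of Smad4 did (-0.33 and -0.27). The falls numbered 3 with no filter and in the fits without deleted replicate 2, 3 or 4 or without Hoxa9 and Meis1 replicate 2 or 3, and 4 within the low bioB set, where 1 gene rose.

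Hox genes, whose proteins pair with Pbx and Meis on DNA, were mostly near the floor: 14 of 34 were tested, 3 rose (1 within the low bioB set), 0 fell (0 also at an unadjusted limma p under 0.05) and the median was 0.08. Hoxb3 averaged 6.53 ± 0.04 in Meis1 deleted cells and 6.14 ± 0.08 in Hoxa9 and Meis1 cells (0.40 ± 0.05, limma adjusted p = 0.000411), Hoxa3 rose by 0.37 (0.00260), and Hoxc4 rose by 0.19 (0.0176), the last not passing without deleted replicate 2 or without Hoxa9 and Meis1 replicate 3 (0.0511 and 0.0546). Further tested probe sets of Hoxb3 (0.04, limma adjusted p = 0.625) and Hoxa3 (0.01, 0.947) did not pass. Hoxa9, the partner both groups carry as a transgene, read 8.95, 9.98, 9.97 and 10.07 in Meis1 deleted cells and 10.11, 10.17, 10.21 and 9.83 in Hoxa9 and Meis1 cells (-0.34, 95% interval -0.85 to 0.18, limma adjusted p = 0.304), its low value again in deleted replicate 1.

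Genes that earlier work links to Meis1 changed in both directions. Of 11 tested genes 4 rose and 6 fell, with a median of -0.26, where 34.7% of all genes were called. The list was chosen with earlier results of these data known, so its share of calls is a description only. Cd34, a progenitor surface protein, and Erg, an ETS factor of stem cells, were lower by -1.87 ± 0.10 and -1.35 ± 0.07 on the log2 scale (limma adjusted p = 9.14e-07 and 9.72e-07). A further Erg probe set did not pass (-0.08, limma adjusted p = 0.341). The platelet chemokine gene Pf4 rose by 3.84 ± 0.06 (limma adjusted p = 3.53e-10) and Cd69, an early activation antigen, rose by 0.72 ± 0.07 (7.78e-05). The rises numbered 2 without Hoxa9 and Meis1 replicate 3 or 4 and within the low bioB set, and under a stricter filter, at the lowest 60% of the array, the falls numbered 3 of 7 genes and the median was 0.13.

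**Figure D5:**
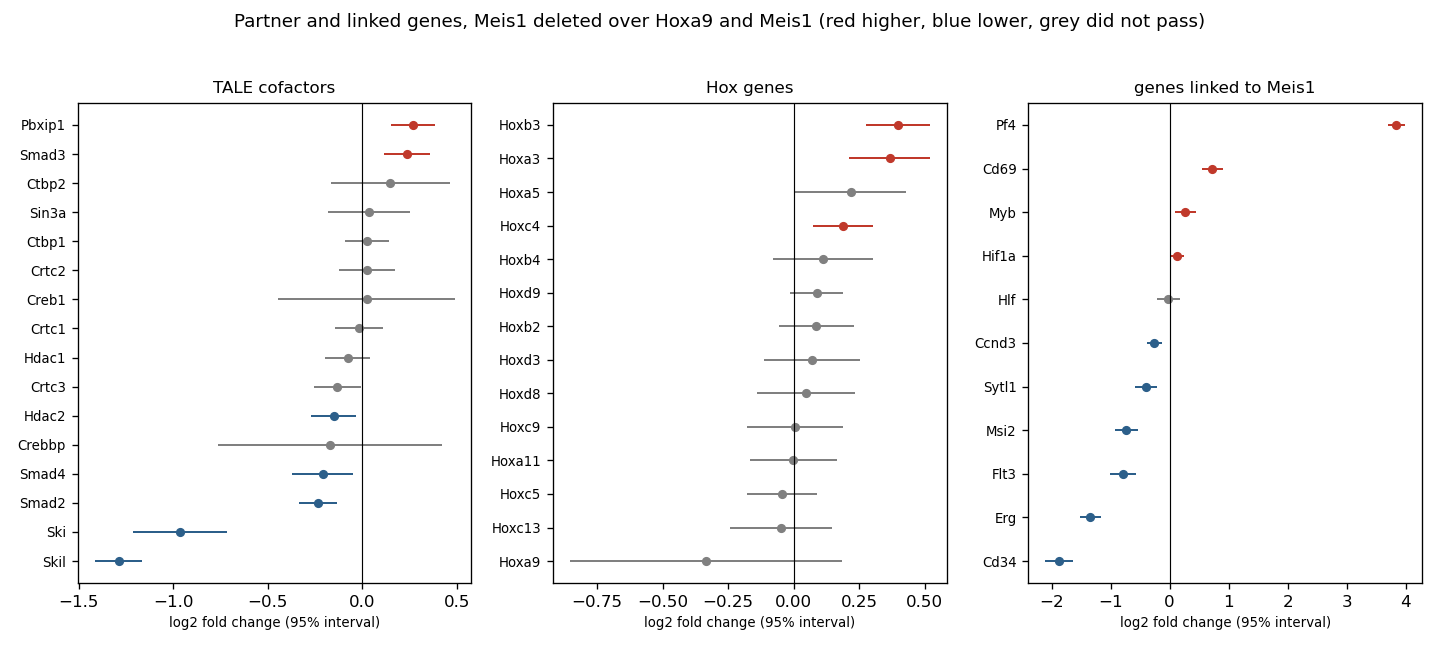
Log2 fold change with 95% limma interval (x axis, own scale in each panel), Meis1 deleted over Hoxa9 and Meis1, of the tested genes (rows) among TALE cofactors, Hox genes and genes linked to Meis1; red rose, blue fell, grey did not pass. Skil and Ski lead the falls among the cofactors, and Pf4 stands far above the other linked genes.

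The genes whose 8-array profile was nearest to that of a changed member, by root mean square difference after each profile was centred on its mean, were named as a description. For Pbx2 at 1418893_PM_at they were the helicase gene Pif1 (0.05, log2 fold change 0.58), 2310061I04Rik (0.05, 0.54) and the folliculin gene Flcn (0.05, 0.55). For Pknox1 at 1437470_PM_at they were Uhrf1bp1l (0.03, -0.57), the calpain inhibitor gene Cast (0.03, -0.59) and the protease inhibitor gene Spint2 (0.04, -0.55).

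Pbx2, Pknox1 and Tgif1 all lie on chromosome 17, by the RefSeq order of genes in GRCm38.p6. The protein-coding neighbours of the changed members were looked up after these changes had been seen. Beside Pbx2, Gpsm3 rose by 0.37 ± 0.08 (limma adjusted p = 0.00507) and Ager was at 0.29 ± 0.12 (0.112). Beside Pknox1, Ndufv3 (-0.06, limma adjusted p = 0.327) and Cbs (-0.03, 0.756) did not pass.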

How the data were processed

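Expression was measured on 8 one-colour Affymetrix arrays, 4 Meis1 deleted and 4 Hoxa9 and Meis1, grouped by the labels' titles. The deposited values are log2 expression per probe set, judged from their range (2.65 to 13.22) and their nearly equal medians (4.69 to 4.74), which look normalized between arrays by the authors. The submitters' processing notes list MAS5 without a version or a stated role. How probes were summarised, and the build, is not stated in the sources used here. Values were used as deposited, without detection calls, so a low level is near the floor and not a measured absence. The 4 arrays per group limit the precision.

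Of 45141 probe sets, 104 controls were left out. The platform annotation gave 1 symbol to 28898, several to 551, and left 15588 unnamed here. Probe sets were tested singly with limma 3.58.1 (lmFit, eBayes) in R 4.3.3. Intervals are 95% limma intervals, and errors of fold changes are standard errors. The fit was tested on simulated data. It recovered 4 of 50 changes of 0.25 on the log2 scale, 30 of 50 of 0.5, 47 of 50 of 1 and 50 of 50 of 2, so small changes can be missed. Far fewer probe sets were changed there than were called in the data, so the adjusted threshold was stricter and the shares may differ. Alternatives covered filters, scalings, offsets, weights, blocks, gene summaries and each array left out. Plots were drawn with matplotlib 3.10.9 in Python 3.11.15.

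Named genes were every member, Hoxa9, up to 4 list genes with the smallest p among those called, and the 3 nearest profiles of each changed member. Other genes are named on values already seen. The members and lists were chosen with earlier results of these data known.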

Additional observations from a re-analysis of the deposited data

Results flagged for a closer look

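A sample stood far from the other 3 of its group, by Dixon's ratio of the gap to the group's range against its 95% critical value, in 6 of 58 groups of values tested, where chance alone flags about 1 in 20. The values were those of the member probe sets, of the list genes named by smallest p, and the 3′ minus 5′ signals of Gapdh and Actb. Hoxa9 was not included, though its deleted replicate 1 read 8.95 beside 9.98, 9.97 and 10.07. In Meis1 deleted cells the ratio was 0.865 for the Gapdh 3′ minus 5′ signal, 0.854 for Pbx2 1449261_PM_at, and 0.863 for Pknox1 1437470_PM_at. In each of these the far array was replicate 1, the highest of its group, and for Pknox1 it lay toward the Hoxa9 and Meis1 arrays. The ratio was 0.955 for Pknox2 1428017_PM_at, where Meis1 deleted replicate 2 was low by about 0.10 near the floor. It was 0.876 for Cd34 in Meis1 deleted cells, where replicate 4 was the low array. For Meis3 in Hoxa9 and Meis1 cells it was 0.852, with replicate 1 the low array.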

How the results depend on the processing

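Over 20 alternative fits per probe set, Pbx2 1418893_PM_at ran from 0.38 to 0.62. Pknox1 ran from -0.66 to -0.44 at 1437470_PM_at, from -0.67 to -0.33 at 1450172_PM_at and from -0.51 to -0.22 at 1421233_PM_at. The fit within the high bioB set rests on 1 deleted array and supports no call. In every other fit each of these probe sets passed. The number of TALE probe sets called higher was 1 in the fit reported and 2 with the lowest 60% left out, with quantile normalization, with 75th percentile scaling and with eBayes trend and robust, where Pbx2 1418894_PM_s_at was added, 3 with array weights, and 1 to 2 with each array left out. The number called lower was 3 to 4 with an array left out. TALE genes called lower numbered 1, or 2 with 1 row per gene by the highest mean or by the mean of probe sets, and 1 to 2 with each array left out, Pbx4 being the addition. Over all probe sets 8450 were called, 3820 within the low and 4315 within the high bioB set (6735 to 9818 with each array left out), and over genes 4108, with 1935 and 2013 in these sets, where fewer arrays were tested. The direction of values near 0 turned for Meis1 1459423_PM_at within the low bioB set (-0.0129), for Meis3 within the high bioB set (-0.0441) and over the fits with each array left out (-0.0326 to 0.0271), and for Cbs with array weights (0.0218), within the low bioB set (0.0710) and over the fits with each array left out (-0.0787 to 0.0141); none of these passed. Under the filter, where no call was made, Meis2 1440091_PM_at turned to 0.0103 and Pknox2 1428017_PM_at to 0.0208 within the high bioB set, and the Meis2 value to 0.0096 without Hoxa9 and Meis1 replicate 3. The labels do not state whether replicate numbers mark pairs. Same-numbered arrays correlated at -0.10, 0.28, -0.14 and 0.21 in their deviations from the group means, which cannot decide it with 4 arrays a group. With the replicate number as a block 7928 probe sets were called, and Pbx2 and Pknox1 kept 1 and 3 called probe sets. The cause of these shifts was not tested. No scaling moved the median of all probe sets by over 0.1. Low levels, near the floor for Meis2 and Pknox2, limit Meis1, Meis2, Meis3, Pknox2 and Pbx4.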
